A study of Homo sapiens with 32 samples.

Results

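The 40 genes described here code for proteins that carry cells through G2 and mitosis. They were read in HCT116, an established human colorectal carcinoma line, and were chosen by name: the deposited transcript rows were matched to the 40 gene symbols, and for each gene the row with the most reads over all libraries was taken. All 40 genes were found, among 14341 named genes with at least 1 read, and all 40 passed the filters on low counts. They were grouped by role into 6 cyclins, CDK1 and CDC25 phosphatases, 6 mitotic kinases and passenger-complex proteins, 8 genes of the spindle checkpoint and anaphase ubiquitination, 5 centromere and kinetochore genes, 12 motors, microtubule factors and cytokinesis genes, and 3 genes of chromosome structure.

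In a dividing cell, cyclin A and cyclin B activate CDK1, the kinase that starts mitosis, and the Aurora and Polo kinases then build the spindle and attach chromosomes to it. The spindle checkpoint (BUB and MAD proteins and the kinase TTK) holds the cell until every kinetochore is attached, after which CDC20 and UBE2C let the anaphase-promoting complex mark cyclin B for degradation. The mRNAs of these proteins are made late in the cell cycle: the DREAM complex silences the genes in resting and G1 cells through a short promoter element called the cell cycle genes homology region (CHR), and B-MYB, FOXM1 and the CCAAT-binding factor NF-Y act on the same promoters in G2.

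The assay was SLAM-seq, in which cells take up 4-thiouridine (s4U) and RNA made during that time shows T-to-C conversions in the reads. All cells carried a tetON OsTIR1, the plant auxin receptor under doxycycline control, and all were given doxycycline (200 ng/mL, 24 h) and s4U (250 µM, 2 h). The parental line (HCT116 tetON OsTIR1, genotype Tet-OsTIR1-PURO) had no degron. The tagged line (mAID-IGF2BP3) carried in addition mAID, an auxin-inducible degron, on both copies of IGF2BP3, an mRNA-binding protein. Each line was either unstressed (DMSO) or stressed with 5 µg/mL tunicamycin for 5 h, a drug that blocks protein glycosylation in the endoplasmic reticulum (ER), and received either vehicle (DMSO) or 500 µM auxin (IAA) for 9 h. This gave 8 groups of 4 libraries, each library from 1 culture well. The sources used here do not say how many clones the tagged line represents, and mRNA data do not show whether the protein was removed. The p-values therefore measure the spread between wells, and in bulk RNA fewer cells in G2 and mitosis cannot be told apart from less of these mRNAs per cell. IGF2BP3 mRNA itself stood at 158.0 ± 13.2 CPM in unstressed, vehicle-treated parental cells, 155.6 ± 3.97 CPM in tagged cells and 149.0 ± 19.7 CPM in tagged cells with auxin (SD, n = 4), which overlap; the degron acts on the protein.

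Reads in named genes numbered 2.55 M to 6.98 M in 31 libraries, and 0.987 M in the shallowest one, which is replicate 1 of parental cells given both stress and auxin. That library also stood apart in content: its 10 most abundant genes held 9.97% of its reads, against at most 5.81% elsewhere. Counts and calls that turn on it are given with and without it. The stress treatment was visible in all 4 comparisons, where all 13 genes of an ER stress list rose in total reads; in parental cells without auxin DDIT3, a stress-induced transcription factor, went from 25.2 ± 2.80 to 864.0 ± 69.3 CPM (SD, n = 4). CPM are total reads of a gene scaled to the library size with edgeR's TMM factors. Of 9 colorectal epithelial markers 7 passed the filter, with summed levels of 1800 to 2720 CPM over the libraries, whereas 1 of 5 fibroblast, 1 of 4 leukocyte and 0 of 3 endothelial markers did, the endothelial ones with a sum of at most 1.66 CPM.

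The promoters of these genes shared a feature that played no part in how they were chosen. RefSeq promoter sequences (GRCh38.p14, 250 bases before to 50 bases after the annotated start) were at hand for 34 of the 40 genes. The CHR was searched as TTTGAA, its reverse complement TTCAAA, and TTCGAA, and the CCAAT box as CCAAT or ATTGG, so both strands were covered. A CHR match lay in 25 of the 34 promoters (73.5%), against 16.6% of 27305 promoters of the same length and 10.7% of the 9237 that belong to genes tested here. In 19 of the 34 a CHR match began between position -60 and position 21 from the start, where 2.61% of the tested genes had one. A CCAAT match was also in 25 of the 34 (73.5%), against 35.7% of all promoters, and both motifs occurred together in 21 (61.8%), against 6.58%. Of the promoters searched, 9 had no CHR match (CCNA2, CCNB1, CDC25B, CDC25C, AURKB, CENPE, KIF20A, KIF2C and CKAP2), which says only that these letters are not in that window. For AURKB and CKAP2 the window lies around a start inside the gene, downstream of the gene's first annotated base. A match is a description of letters and does not show that a protein binds.

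A set of 6 windows is shown because the results below turn on 4 of the genes (CENPA, INCENP, MKI67 and PRC1), and because CCNB2 and PLK1 show the common layout, CCAAT boxes upstream of a CHR close to the start. Each runs 5′ to 3′ on the gene's strand for 150 bases, from position -120 to position 30, with CHR and CCAAT matches in capitals. CCNB2, which codes for cyclin B2, lies on the plus strand (chr15:59105026-59105175) and has 3 CCAAT boxes before its CHR at position -29. PLK1, the Polo-like kinase (plus strand, chr16:23678769-23678918), has 1 box and a CHR at the same position. CENPA, the centromeric histone H3 variant (plus strand, chr2:26785936-26786085), has its CHR at position -18 and its CCAAT matches upstream of the window shown. INCENP, the scaffold of the passenger complex (plus strand, chr11:62123891-62124040), has 3 boxes and a CHR at position -10. PRC1, which bundles microtubules at the spindle midzone (minus strand, chr15:90994506-90994655), has its CHR at position -20. MKI67, the proliferation marker Ki-67 (minus strand, chr10:128126394-128126543), has CHR matches at positions -47 and -29, and the second runs into a CCAAT box.
CCNB2: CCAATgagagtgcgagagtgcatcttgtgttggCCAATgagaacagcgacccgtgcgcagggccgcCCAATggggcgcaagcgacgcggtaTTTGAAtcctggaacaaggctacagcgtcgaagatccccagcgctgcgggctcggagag
PLK1: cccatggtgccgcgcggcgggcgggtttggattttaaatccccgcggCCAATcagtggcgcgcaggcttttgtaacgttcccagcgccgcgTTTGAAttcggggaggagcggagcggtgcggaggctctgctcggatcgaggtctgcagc
CENPA: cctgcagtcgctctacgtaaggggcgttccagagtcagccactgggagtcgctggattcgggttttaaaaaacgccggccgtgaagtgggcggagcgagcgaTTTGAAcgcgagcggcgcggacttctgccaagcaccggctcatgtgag
INCENP: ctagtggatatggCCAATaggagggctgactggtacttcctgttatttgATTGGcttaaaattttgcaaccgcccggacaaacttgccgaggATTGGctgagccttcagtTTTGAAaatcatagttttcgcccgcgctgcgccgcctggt
PRC1: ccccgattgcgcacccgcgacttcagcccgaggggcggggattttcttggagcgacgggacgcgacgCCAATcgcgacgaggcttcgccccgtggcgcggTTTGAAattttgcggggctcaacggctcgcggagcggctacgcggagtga
MKI67: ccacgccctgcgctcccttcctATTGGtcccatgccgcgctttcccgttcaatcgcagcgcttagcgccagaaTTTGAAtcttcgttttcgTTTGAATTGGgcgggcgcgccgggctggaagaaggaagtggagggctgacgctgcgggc

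The mRNAs of the 40 genes were not labelled alike. Labelling in 1 window of 2 h was read, and turnover itself was not measured. Labelling was compared between genes as T-to-C conversions per covered T position, which takes out the number of T positions in the counted 3′ regions (61 to 2531 bases long). In unstressed, vehicle-treated parental cells, conversions made up 0.683% to 3.39% of covered T positions over the 40 genes, as means over the 4 libraries. With the 4 libraries pooled, 26 of the 40 lay above the median of all 8980 genes tested (1.53%). Pooled in the same way, 9 genes lay above the upper quartile of all genes (2.45%) and 2 below the lower quartile (0.919%).

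The most labelled mRNA was that of TOP2A, the DNA topoisomerase that untangles sister chromatids, with 3.39% ± 0.320 (SD, n = 4). CENPE, a kinetochore motor, had 3.38% ± 1.00, and CKAP2, a spindle-associated protein, 2.99% ± 0.330. The least labelled was CDC20, the activator of the anaphase-promoting complex, with 0.683% ± 0.0990. TPX2, the activator of Aurora A, had 0.925% ± 0.110, MAD2L1, the checkpoint protein MAD2, 0.934% ± 0.250, and BUB3, its checkpoint partner, 0.959% ± 0.150. The ends of this order lay apart by more than their SDs. Of the 39 pairs of neighbours in it, 1 differed by more than the larger of its SDs, CDC20 and TPX2.

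By role, the medians were 2.87% for the centromere and kinetochore genes, 2.39% for chromosome structure and 2.35% for the motors and cytokinesis genes, against 1.33% for the kinases and passenger proteins and 1.48% for the cyclins and CDK1 regulators. Within the passenger complex, CDCA8 (borealin) had 2.80% ± 0.0910 and AURKB, its kinase, 1.87% ± 0.130, while INCENP had 1.19% ± 0.110 and BIRC5 (survivin) 1.02% ± 0.220. Of the cyclins, CCNA2 had 1.72% ± 0.150, CCNB1 1.34% ± 0.0970 and CCNB2 1.18% ± 0.330. With 161 reads over the 4 libraries for CENPE and 184 for CENPA, against 3772 for CDC20, the values of the low genes are the less precise ones.

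**Figure D1:**
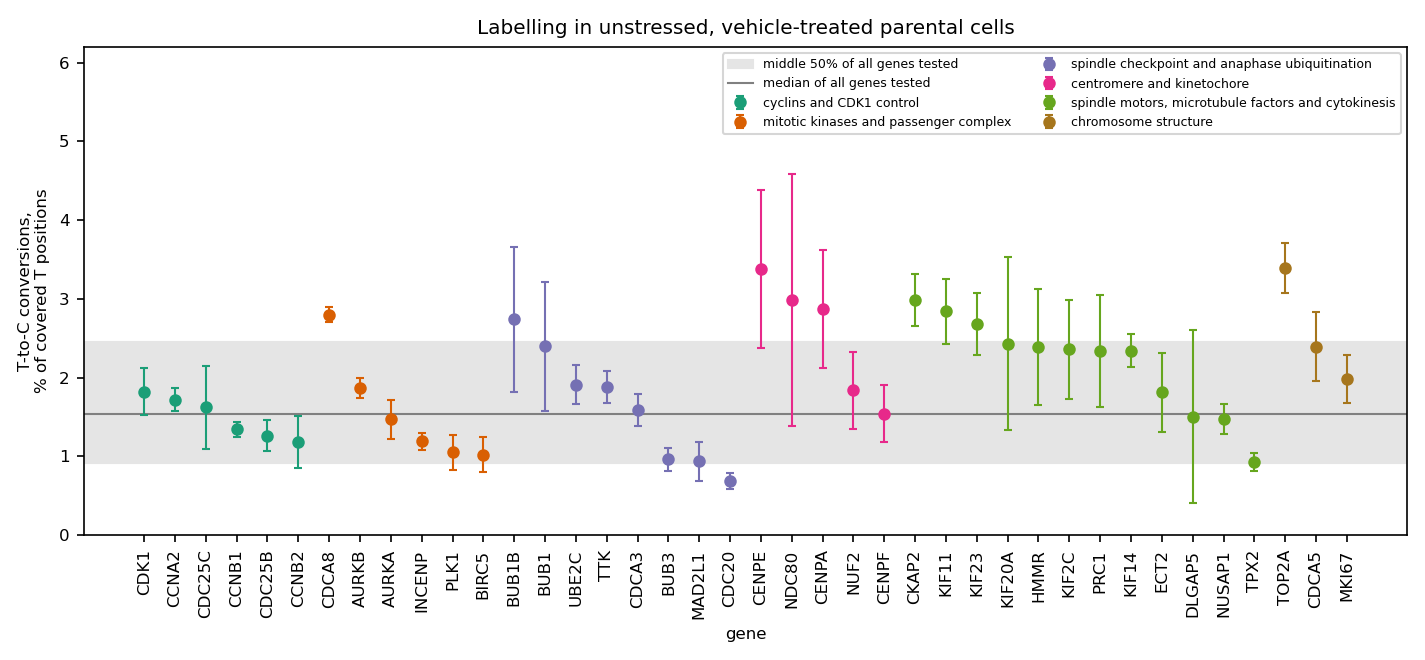
Percentage of covered T positions read as C (y axis) for each of the 40 genes (x axis, grouped and coloured by role) in unstressed, vehicle-treated parental cells; points are means and bars SDs over 4 libraries. The grey band and line are the middle 50% and the median of all 8980 genes tested, with the 4 libraries pooled. TOP2A lies at 3.39% and CDC20 at 0.683%.

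The ends of the order recurred across groups. CENPE, TOP2A or CENPA was the most labelled of the 40 genes in each of the 8 groups, and MAD2L1, CDC20 or CCNB2 the least. Labelling per T fell with stress in these genes as it did in all: the pooled median of the 40 went from 1.85% to 1.12% in vehicle-treated parental cells and from 1.66% to 1.23% in tagged cells, and the median of all genes from 1.53% to 0.990% and from 1.52% to 1.10%. TOP2A remained high within each group, between the 78th and 90th percentile of all genes, CENPE between the 83rd and 92nd, and CDC20 low, between the 14th and 26th.

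In vehicle-treated parental cells 3 of the 40 genes changed in total reads: CENPA rose and INCENP and MKI67 fell. This is 7.50% of the genes, against 12.9% of all 11186 genes tested, 7.65% higher and 5.26% lower (edgeR's quasi-likelihood test, adjusted p below 0.05). The median log2 change of the 40 was 0.04, against -0.01 for all genes, and 34 of the 40 (all genes, 76.7%) lay within 0.5 of 0. At an unadjusted p below 0.05 there were 13 of the 40, against 29.6% of all genes, and 26, against 41.5%, without the shallowest library.

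CENPA (chromosome 2, 26786056 to 26794589) had 10.5, 8.03, 18.0 and 11.7 CPM in the unstressed libraries and 24.1, 32.4, 23.6 and 19.1 CPM in the stressed ones. The groups did not overlap, and the log2 change was 1.02 ± 0.31 (SE; edgeR adjusted p = 0.0278, n = 4 and 4). These levels rest on 27 to 76 reads per unstressed library. INCENP (chromosome 11, 62124011 to 62153169) had 51.9, 64.8, 46.6 and 57.2 CPM unstressed and 36.7, 29.9, 35.9 and 37.7 CPM stressed. All stressed libraries lay below all unstressed ones, and the log2 change was -0.65 ± 0.14 (edgeR adjusted p = 0.00194). MKI67 (chromosome 10, 128096659 to 128126423) had 359.1, 376.8, 345.1 and 354.1 CPM unstressed and 297.4, 233.1, 292.1 and 256.7 CPM stressed, again with no overlap, a log2 change of -0.41 ± 0.10 (edgeR adjusted p = 0.00794).

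The regulators at the centre of mitotic entry did not pass the test. CCNB1 had 193.4, 213.6, 209.1 and 196.0 CPM unstressed and 197.1, 169.6, 177.2 and 175.2 CPM stressed, which overlap (log2 change -0.18 ± 0.09, edgeR adjusted p = 0.189). CDK1 had 100.5, 84.5, 155.4 and 139.4 CPM unstressed and 167.9, 170.0, 141.1 and 147.0 CPM stressed (0.38 ± 0.21, edgeR adjusted p = 0.225). The unstressed CDK1 libraries spread widely, and 1 of the 4 lay within the stressed range.

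Of the kinases, PLK1 had 235.7, 303.7, 198.2 and 222.8 CPM unstressed and 200.5, 168.0, 216.8 and 169.0 CPM stressed (log2 change -0.35 ± 0.14, edgeR adjusted p = 0.0878). AURKA, the spindle-pole kinase, had 153.6, 146.0, 154.9 and 175.9 CPM unstressed and 132.4, 106.7, 127.2 and 115.4 CPM stressed. Its groups did not overlap, but the change of -0.39 ± 0.16 did not pass (edgeR adjusted p = 0.0905). TOP2A had 90.3, 73.2, 110.0 and 96.6 CPM unstressed and 115.4, 126.2, 112.9 and 97.6 CPM stressed (0.29 ± 0.20, edgeR adjusted p = 0.349).

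The libraries in the fit set how many of the 40 genes passed here. Without the shallowest library, which is in neither of these groups but shares their estimate of the spread, 15 of the 40 genes passed (37.5%), against 30.1% of all genes (15.8% higher, 14.3% lower). Of these, 8 rose (CENPA, PRC1, KIF2C, NUF2, KIF20A, TTK, ECT2 and KIF23) and 7 fell (INCENP, MKI67, AURKA, PLK1, CDC25B, TPX2 and CDCA8). With that library left out, AURKA's change was -0.39 ± 0.08 (edgeR adjusted p = 0.00052). Leaving out replicate 3 of the unstressed vehicle-treated parental cells gave 9 genes, and leaving out replicate 2 of the stressed ones gave 1. The share of all genes called in those fits is not given. The counts show dependence on the libraries and are not a result about the 40 genes.

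In auxin-treated parental cells stress lowered CCNA2 and DLGAP5, which codes for the spindle protein HURP, and no gene of the 40 rose. This is 5.00%, against 10.5% of all genes (7.26% higher, 3.19% lower), and the median log2 change was -0.16, against 0.00; without the shallowest library it was -0.08, and 16 of the 40 estimates were positive in place of 6. CCNA2 (chromosome 4, 121816444 to 121823883), cyclin A2, had 135.4, 120.1, 145.1 and 143.2 CPM unstressed and 64.8, 108.9, 105.4 and 115.6 CPM stressed. The groups did not overlap (all genes, 11.1%), and the lowest value is from the shallowest library. The log2 change was -0.43 ± 0.11 (edgeR adjusted p = 0.0132), and -0.31 ± 0.09 without it (edgeR adjusted p = 0.0229). DLGAP5 (chromosome 14, 55148135 to 55191585) had 37.1, 46.5, 49.0 and 46.0 CPM unstressed and 29.2, 41.1, 29.4 and 28.5 CPM stressed. The groups overlap through 1 library on each side; the change was -0.46 ± 0.13 (edgeR adjusted p = 0.0198), and -0.44 ± 0.13 without that library (edgeR adjusted p = 0.0292). By contrast TPX2 stood at 0.59 ± 0.21 with that library and 0.05 ± 0.10 without it, and passed in neither (edgeR adjusted p = 0.0677 and 0.826). The count was 0 without replicate 3 of the unstressed auxin-treated cells, 1 without replicate 2, and 4 without replicate 2, 3 or 4 of the stressed ones. Shares of all genes are not given for these fits, so the counts only show dependence on the libraries.

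**Figure D2:**
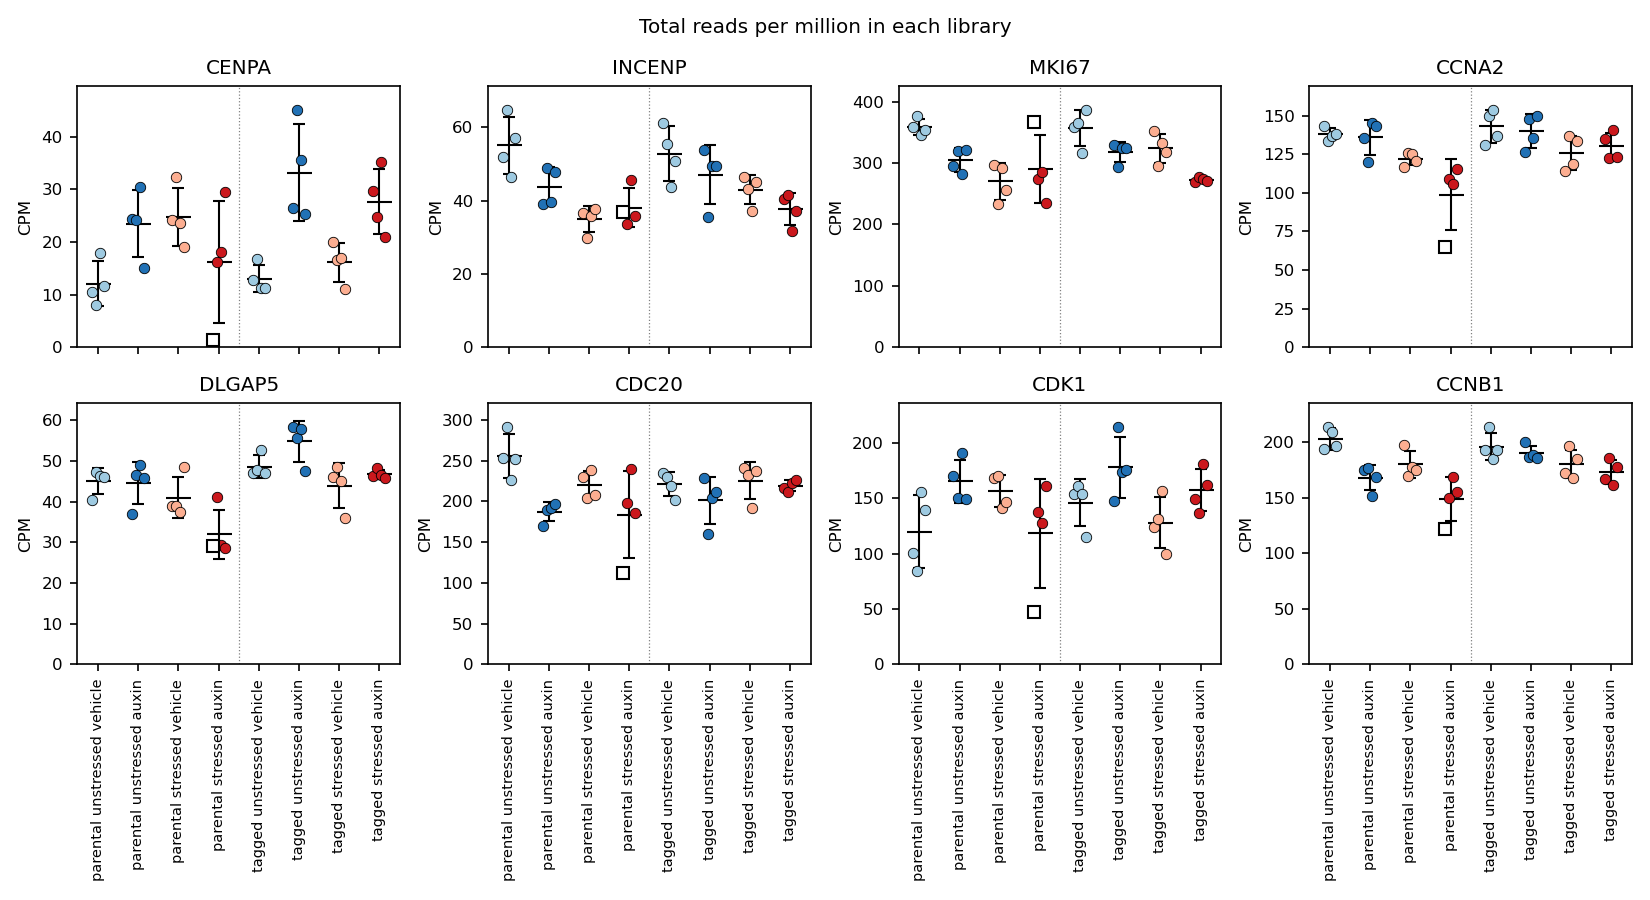
Total reads in CPM (y axes) of 8 genes in each of the 32 libraries, by group (x axis; light blue unstressed vehicle, dark blue unstressed auxin, light red stressed vehicle, dark red stressed auxin); points are libraries, horizontal marks means and bars SDs, n = 4. The open square is the shallowest library, where CENPA had 1.27 CPM and CDK1 47.0 CPM, below the other 3 libraries of that group.

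In tagged cells none of the 40 genes passed with stress. With vehicle, 4.03% of all genes passed and the median of the 40 was -0.05. With auxin, 4.15% of all genes passed and the median was -0.13. At an unadjusted p below 0.05 the counts were 1 and 3 of the 40, against 13.1% and 13.7% of all genes. They were 4 and 5 without the shallowest library, against 18.5% and 19.7%. With all libraries DESeq2 called 0 in each. The share of all genes that DESeq2 called is not given, here or below, so its counts are not results about the 40. The smallest p-values with vehicle belonged to INCENP (log2 change -0.30 ± 0.14, edgeR adjusted p = 0.367), MAD2L1 (-0.26 ± 0.15, adjusted p = 0.481) and CCNA2 (-0.18 ± 0.11, adjusted p = 0.563). With auxin they belonged to CENPE (-0.71 ± 0.27, edgeR adjusted p = 0.170), INCENP (-0.32 ± 0.14, adjusted p = 0.287) and MKI67 (-0.22 ± 0.10, adjusted p = 0.335). CENPE passed without the shallowest library (edgeR adjusted p = 0.0461, where 8.12% of all genes passed).

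INCENP therefore had a negative estimate in all 4 stress comparisons, of -0.65, -0.20, -0.30 and -0.32, and passed in 1. In unstressed and stressed vehicle-treated tagged cells it had 43.7 to 61.3 CPM (median 53.3) and 37.3 to 46.5 CPM (median 44.1), which overlap. AURKA also had a negative estimate in all 4 (-0.39, -0.42, -0.22 and -0.20), and its stressed libraries lay below all unstressed ones in each, but it passed in none. Of all genes, 23.5%, 11.1%, 12.5% and 14.5% had groups that did not overlap in these comparisons. Whether stress acted differently in the lines, without auxin, was tested for all genes, of which 0% passed. DESeq2 called 0 of the 40, with 3 at an unadjusted p below 0.05 (all genes, 7.36%): MAD2L1 (-0.49 ± 0.21), PRC1 (-1.20 ± 0.54) and KIF20A (-0.67 ± 0.32), each with an edgeR adjusted p of 0.650. The unadjusted count was 10 without the shallowest library (all genes, 17.5%), and 0 passed. With the first principal component of the spread within groups as a covariate as well, 13 of the 40 passed (3 higher, 10 lower), against 14.7% of all genes. That component comes from these same counts, so here and below including it lowers the residual spread by construction and more genes pass. The outcome of this test depends on how the spread within groups is treated, and the calls with the component are not support for a difference.

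**Figure D3:**
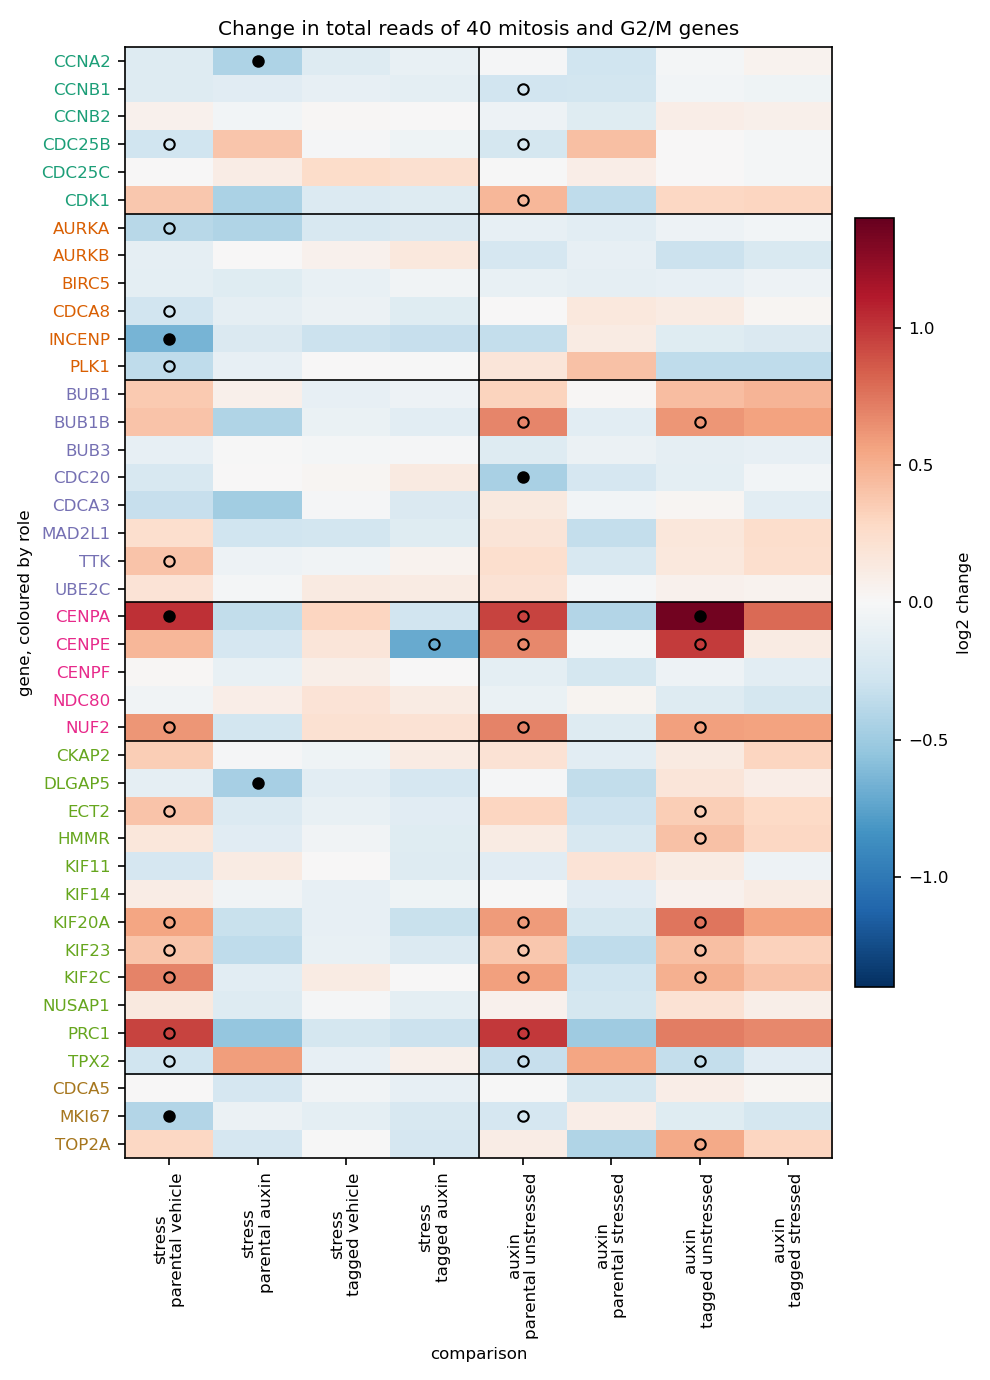
Log2 change in total reads (colour) of the 40 genes (by role, top to bottom) for stress (stressed minus unstressed, left 4 columns) and auxin (auxin minus vehicle, right 4 columns). Filled circles mark an edgeR adjusted p below 0.05 with all 32 libraries, 7 in all, and open circles those that passed only without the shallowest library; CENPA reaches 1.35 with auxin in unstressed tagged cells.

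Auxin was compared with vehicle in both lines, the parental cells showing what auxin does without the degron. In unstressed parental cells 1 of the 40 genes changed, CDC20, which fell. This is 2.50%, against 7.20% of all genes (4.85% higher, 2.35% lower). CDC20 (chromosome 1, 43358981 to 43363203) had 253.5, 291.5, 226.2 and 252.7 CPM with vehicle and 170.3, 189.6, 192.0 and 196.9 CPM with auxin, with no overlap (log2 change -0.45 ± 0.14, edgeR adjusted p = 0.0407). Groups did not overlap for 18.1% of all genes here. CENPA stood at 24.3, 24.1, 30.4 and 15.0 CPM with auxin (0.95 ± 0.32, edgeR adjusted p = 0.0623). This comparison and that of stress in vehicle-treated parental cells share their 4 unstressed vehicle libraries, among which CENPA and PRC1 were low: PRC1 had 52.5, 44.3, 139.8 and 95.4 CPM there, 161.3 ± 27.1 CPM with stress and 166.0 ± 32.7 CPM with auxin (SD, n = 4 each).

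In unstressed tagged cells auxin raised CENPA, again 1 of the 40 genes (2.50%), against 0.679% of all genes (0.393% higher, 0.286% lower). CENPA had 12.8, 16.7, 11.3 and 11.3 CPM with vehicle and 26.5, 45.1, 35.6 and 25.3 CPM with auxin. The groups did not overlap (all genes, 20.4%), and the log2 change was 1.35 ± 0.32 (edgeR adjusted p = 0.0431). CENPE (0.98 ± 0.28, edgeR adjusted p = 0.0634) and KIF20A, a cytokinesis motor (0.75 ± 0.23, adjusted p = 0.0804), came next. The 2 stress comparisons and the 2 auxin comparisons of a line share groups, so their values stand side by side and not as separate evidence. With auxin in stressed cells no gene of the 40 passed in either line, where 0.0179% of all genes passed in parental and 0.0179% in tagged cells; 9 and 8 of the 40 had an unadjusted p below 0.05, against 15.9% and 13.7% of all genes, and DESeq2 called 0 in each. These counts were 3 and 15 without the shallowest library, against 6.13% and 25.3%. With the within-group component as a covariate as well, 0 passed in parental cells (0.409% of all genes) and 16 in tagged cells (21.9%).

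The 2 calls with auxin depended on the libraries. Without the shallowest library, 14 of the 40 genes passed in unstressed parental cells (35.0%, against 24.9% of all genes, 13.7% higher and 11.2% lower) and 11 in unstressed tagged cells (27.5%, against 15.9%, 7.76% higher and 8.17% lower). In parental cells 9 rose (PRC1, CENPA, NUF2, BUB1B, CENPE, KIF20A, KIF2C, CDK1 and KIF23) and 5 fell (CDC20, TPX2, CCNB1, CDC25B and MKI67). In tagged cells 10 rose (CENPA, CENPE, KIF20A, BUB1B, NUF2, TOP2A, KIF2C, KIF23, HMMR and ECT2) and TPX2 fell. The parental count was 7 without replicate 3 of the unstressed vehicle-treated parental cells, 3 without replicate 4 of the unstressed or of the stressed auxin-treated ones, and 0 without replicate 1, 2 or 4 of the vehicle-treated or replicate 1, 2 or 3 of the auxin-treated unstressed ones. The tagged count was 0 without any one of 17 libraries, including each of the 4 unstressed vehicle-treated tagged ones. Apart from the shallowest library, the share of all genes called with a library left out is not given. Those counts are not results about the 40 genes. The CDC20 call was kept in 33 of 40 alternatives and the CENPA call in tagged cells in 22 of 40, with no change of sign.

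Whether auxin acted differently in tagged and parental cells was tested directly, and no gene of the 40 passed by edgeR, unstressed (0.0179% of all genes) or stressed (0%). DESeq2 called 0 and 1 (share of all genes not given). At an unadjusted p below 0.05 by edgeR there were 1 and 17 of the 40, against 5.96% and 21.7% of all genes. Leaving out the shallowest library gave 5 and 11, against 11.5% and 14.5%, and with the within-group component as a covariate as well 2 and 10 passed, against 5.23% and 10.7%. The smallest p in both belonged to PLK1, whose auxin change in tagged cells minus that in parental cells was -0.53 ± 0.19 unstressed (edgeR adjusted p = 0.617) and -0.77 ± 0.20 stressed (edgeR adjusted p = 0.166). In stressed cells PLK1 had 200.5, 168.0, 216.8 and 169.0 CPM with vehicle and 280.9, 271.4, 263.2 and 190.9 CPM with auxin in the parental line, and 275.0, 228.1, 280.8 and 304.4 CPM against 202.9, 227.7, 201.6 and 215.7 CPM in the tagged line. The estimate is thus positive in one line (0.41 ± 0.14) and negative in the other (-0.36 ± 0.14), and neither passed. Without the shallowest library the stressed PLK1 difference was -0.73 ± 0.18 (edgeR adjusted p = 0.116).

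Between tagged and parental cells of the same treatment, no gene of the 40 passed by edgeR in the 4 conditions, where 0.241%, 0.322%, 0.411% and 0.429% of all genes did. DESeq2 called 0, 0, 1 and 2 (share of all genes not given). At an unadjusted p below 0.05 by edgeR there were 0, 4, 7 and 7, against 7.06%, 8.53%, 11.5% and 19.6% of all genes. Leaving out the shallowest library gave 2, 12, 16 and 3, against 13.6%, 14.8%, 21.8% and 9.19%, and with the within-group component as a covariate as well 4, 8, 17 and 1 passed, against 8.72%, 8.44%, 18.2% and 2.6%. Of the 40, 30, 35, 22 and 33 had a positive estimate, in unstressed vehicle, unstressed auxin, stressed vehicle and stressed auxin cells. The medians were 0.11, 0.17, 0.02 and 0.25, against 0.00, 0.00, -0.01 and 0.00 for all genes; the last of the 4 was 0.11 without the shallowest library. PLK1 (0.54 ± 0.13, edgeR adjusted p = 0.0149) and MKI67 (0.27 ± 0.08, adjusted p = 0.0421) were higher in stressed vehicle-treated tagged than parental cells without the shallowest library, where 3.43% of all genes passed. Summed over the 40 genes, total reads came to 5163 ± 202.4, 5092 ± 113.4, 5022 ± 168.0 and 4791 ± 373.9 CPM in the parental groups (unstressed vehicle, unstressed auxin, stressed vehicle, stressed auxin) and 5418 ± 62.1, 5518 ± 150.9, 5214 ± 108.6 and 5253 ± 27.7 CPM in the tagged groups (SD, n = 4).

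Newly made RNA was read as reads with conversions, scaled by their own TMM factors (labelled CPM). With stress in vehicle-treated parental cells 5 of the 40 genes changed in labelled reads (12.5%, against 17.2% of 8980 genes, 10.1% higher and 7.04% lower): CENPA (log2 change 1.16 ± 0.30, edgeR adjusted p = 0.00327), TTK, the checkpoint kinase MPS1 (0.79 ± 0.22, adjusted p = 0.00700), and KIF2C, a microtubule-depolymerising kinesin (0.76 ± 0.17, adjusted p = 0.000596), rose, while CDC25B, a phosphatase that activates CDK1 (-0.52 ± 0.15, adjusted p = 0.00729), and MKI67 (-0.38 ± 0.14, adjusted p = 0.0417) fell. Labelled KIF2C reads stood at 179.8, 152.8, 218.5 and 224.0 labelled CPM unstressed and 374.4, 370.3, 290.7 and 287.4 stressed, with no overlap. Labelled TTK reads stood at 63.7, 49.4, 88.4 and 87.3 unstressed and 138.6, 134.1, 123.3 and 110.9 stressed, also apart. Groups of labelled reads did not overlap for 21.9% of all genes in this comparison. These changes are relative to the typical gene, since labelling as a whole fell with stress: scaled by total reads instead, the median of the 40 was -0.20 in place of 0.05, that of all genes -0.28 in place of -0.03, and 2 of the 40 were higher (CENPA and KIF2C) and 9 lower. Over all genes the split went from 10.1% higher and 7.04% lower to 6.45% and 19.9%.

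With stress in vehicle-treated tagged cells 2 of the 40 changed in labelled reads (5.00%, against 9.38%, 6.88% higher and 2.49% lower). CENPF, a kinetochore protein, had 217.9, 136.9, 177.4 and 133.4 labelled CPM unstressed and 239.5, 256.8, 248.2 and 236.6 stressed, and rose by 0.56 ± 0.19 (edgeR adjusted p = 0.0384). BIRC5 had 330.8, 317.8, 376.4 and 325.0 unstressed and 211.5, 259.5, 271.0 and 221.5 stressed (-0.49 ± 0.16, edgeR adjusted p = 0.0356). Scaled by total reads, BIRC5 was lower and CENPF did not pass (all genes, 4.87% higher and 7.85% lower). UBE2C, the E2 enzyme of the anaphase-promoting complex, also rose without the shallowest library (0.45 ± 0.14, edgeR adjusted p = 0.0202), where 11.6% of all genes passed. No gene of the 40 passed with stress and auxin together in either line, where 11.4% (parental) and 9.76% (tagged) of all genes did; 2 and 6 had an unadjusted p below 0.05, against 23.2% and 20.9% of all genes, and DESeq2 called 0 in each. TOP2A fell in tagged cells without the shallowest library (-0.42 ± 0.15, edgeR adjusted p = 0.0416), where 11.9% of all genes passed. Scaled by total reads, 0 were higher and 4 lower in the parental line, against 5.03% and 14% of all genes, and 0 and 6 in the tagged line, against 4.69% and 9.42%.

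With auxin, labelled CENPA reads rose in unstressed cells of both lines and no other gene of the 40 passed. In parental cells they went from 22.8, 29.2, 39.9 and 34.2 to 83.9, 59.8, 77.2 and 65.3 labelled CPM (log2 change 1.17 ± 0.30, edgeR adjusted p = 0.0471, where 0.601% of all genes passed, 0.457% higher and 0.145% lower). In tagged cells they went from 43.0, 41.3, 38.4 and 25.8 to 113.6, 136.0, 105.7 and 74.5 (1.54 ± 0.30, edgeR adjusted p = 0.0109, where 0.234% did, 0.134% higher and 0.10% lower). Neither pair of groups overlaps (all genes, 8.74% in parental and 8.34% in tagged cells). In stressed cells no gene passed with auxin by edgeR (0.0111% of all genes in parental and 0% in tagged cells), with 4 and 8 at an unadjusted p below 0.05 (all genes, 6.73% and 10.6%) and 0 called by DESeq2; the 4 became 1 without the shallowest library (all genes, 5.22%). In stressed tagged cells PLK1 (-0.63 ± 0.18, edgeR adjusted p = 0.158) and CENPA (1.03 ± 0.30, adjusted p = 0.164) did not pass with all libraries. Both passed without the shallowest library (edgeR adjusted p = 0.0372 and 0.0449), where 0.992% of all genes did. In unstressed tagged cells CENPE also rose without it (1.31 ± 0.33, edgeR adjusted p = 0.0124; 1.83% of all genes). The difference between the lines in the auxin response of labelled reads passed for 0 of the 40 genes by edgeR, with 4 unstressed and 10 stressed at an unadjusted p below 0.05 (all genes, 5.12% and 11.5%), and DESeq2 called 0 and 1. Scaled by total reads, CENPA's change in parental cells did not pass (edgeR adjusted p = 0.0635) and that in tagged cells did. CENPA's call in parental cells was kept in 24 of 41 alternatives and its call in tagged cells in 38 of 41.

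The labelled share, labelled against other reads of the same gene and relative to the typical gene, changed with stress for 2 of the 40 genes in vehicle-treated parental cells (5.00%, against 8.17% of all genes, 4.81% higher and 3.36% lower). INCENP had 15.3%, 17.9%, 16.8% and 17.9% of its reads labelled unstressed and 22.5%, 19.8%, 25% and 22.3% stressed, with no overlap (log2 change of the share against the typical gene 0.81 ± 0.27, edgeR adjusted p = 0.0408). Its total reads had fallen, as given above. PRC1 had 29.7%, 36.2%, 18.8% and 27.8% unstressed and 15.8%, 14.8%, 10.95% and 15.2% stressed, also apart (-0.78 ± 0.23, edgeR adjusted p = 0.0248). The shares of 25.5% of all genes did not overlap in this comparison. In vehicle-treated tagged cells CENPF rose, 1 of the 40 (2.50%, against 7.07%, 5.02% higher and 2.05% lower), from 24.6%, 15.4%, 20.3% and 14.3% to 23.0%, 27.3%, 19.2% and 20.7% (0.61 ± 0.19, edgeR adjusted p = 0.0344); its groups overlap. No share of the 40 passed with stress in auxin-treated cells, where 8.08% (parental) and 7.14% (tagged) of all genes did and 6 of the 40 had an unadjusted p below 0.05 in each line (all genes, 19.9% and 19.1%); without the shallowest library it was 3 in the parental line (19.7%). Nor did any pass with auxin in the 4 comparisons, where at most 0.212% of all genes did and 10, 2, 4 and 3 of the 40 had an unadjusted p below 0.05 (all genes, 7.62%, 5.31%, 7.26% and 6.88%, in parental unstressed, parental stressed, tagged unstressed and tagged stressed cells). With stress in vehicle-treated tagged cells the BIRC5 share also fell without the shallowest library (-0.40 ± 0.14, edgeR adjusted p = 0.0490), where 7.42% of all genes passed. Scaled by total reads, 0 shares were higher and 10 lower in vehicle-treated parental cells, against 2.34% and 19.8% of all genes, and 0 and 1 in tagged cells, against 2.75% and 8.29%, so the INCENP and CENPF calls rest on the scaling to the typical gene. In auxin-treated cells total reads as the scale gave 0 higher and 2 lower in the parental line, against 2.17% and 14.9%, and 0 and 4 in the tagged line, against 2.34% and 10.1%. A limma test on the log2 ratio called 1 and 0 genes in the vehicle-treated parental and tagged cells, in place of 2 and 1. The share of all genes it called is not given.

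The 40 genes did not vary as one block between the libraries of a group. Over the 31 libraries without the one that stood apart, deviations from the group means were correlated for each of the 780 pairs of genes: r had a median of 0.05 and ran from -0.81 to 0.94. Of the pairs 16.4% had an r above 0.5, against 4.81% of pairs of all genes. The first principal component of all genes' deviations held 22.5% of the variance between libraries of a group, and the 40 genes fell on both sides of it. CDK1 and PRC1 (r = -0.90 each), KIF2C (-0.86), CENPA and NUF2, part of the NDC80 kinetochore complex (-0.85 each), lay at one end, with 16 of the 40 below -0.5 (all genes, 19.7%). TPX2 (0.93), AURKB (0.76), INCENP (0.73) and PLK1 (0.70) lay at the other, with 8 above 0.5 (all genes, 18.6%). Each r is over the same 31 libraries, which differ in depth, so these values are a description.

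In 3 comparisons most of the genes called without the shallowest library lay at the ends of the same axis: all 8 genes that rose with stress in vehicle-treated parental cells had an r below -0.5, as did all 9 that rose with auxin in unstressed parental cells and 9 of the 10 that rose with auxin in unstressed tagged cells. Of those that fell, 5 of 7, 4 of 5 and 1 of 1 had an r above 0.5. The exceptions were AURKA (0.37), CDCA8 (-0.15), CCNB1 (0.41) and HMMR (-0.38). Of the 40 genes, called or not, 16 had an r below -0.5 and 8 an r above 0.5. How many of all called genes lay at the same ends was not counted, so the pattern may not be particular to the 40. The stress and the auxin comparison in parental cells also share their unstressed vehicle libraries, and are not separate evidence. Both genes that fell with stress in auxin-treated parental cells, DLGAP5 (-0.08) and CCNA2 (-0.24), lay in the middle of the axis. The axis is centred within each group, so a fit that includes it takes out the spread within groups and not a shift between them. It was taken from the deviations in these same counts, so the residual spread falls by construction and more genes pass. In that fit, without the same library, 27, 20 and 18 of the 40 genes passed in these 3 comparisons, against 41.3%, 34.6% and 29.1% of all genes. These counts are therefore not separate support for the calls. Whether the differences between groups and the differences between wells of a group have a common source was not tested.

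**Figure D4:**
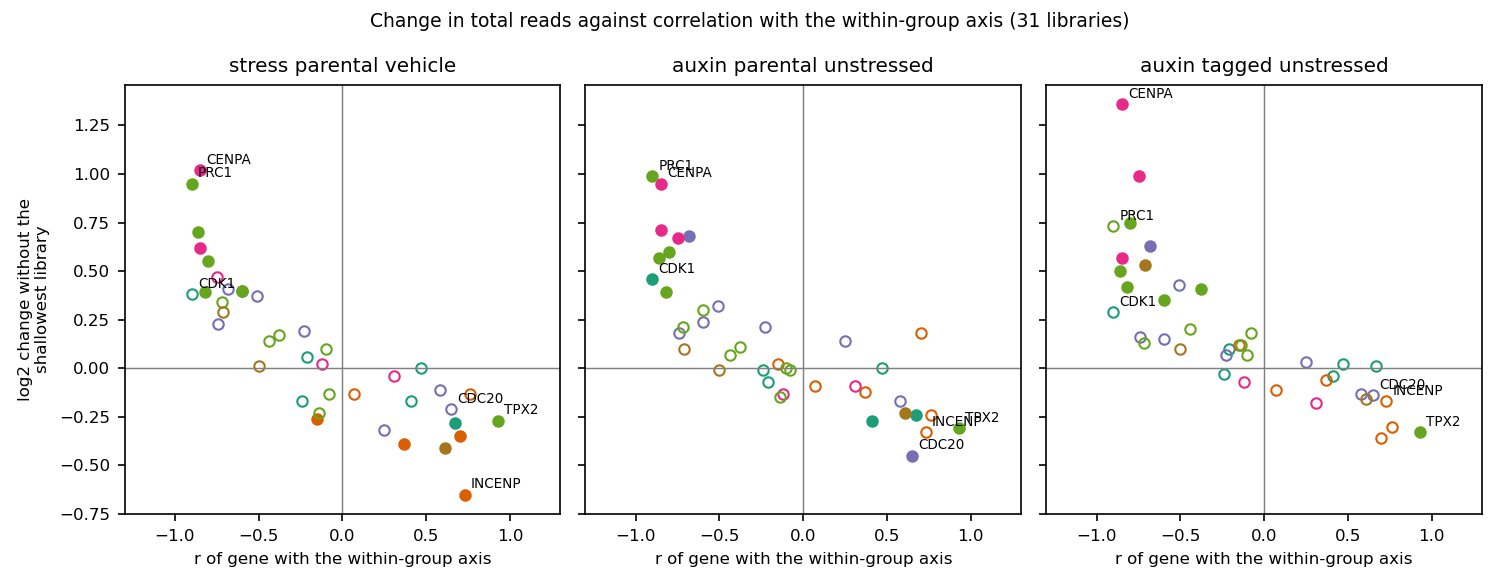
Log2 change in total reads without the shallowest library (y axis) against the correlation of each gene with the within-group axis over 31 libraries (x axis), for 3 comparisons; points are the 40 genes, coloured by role as in the plot of labelling, and filled where the edgeR adjusted p is below 0.05. CENPA and PRC1, with r of -0.85 and -0.90, lie highest in the first 2 panels, and TPX2, with r of 0.93, lies below 0 in all 3.

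Other genes of the pathway were read from lists of related genes. Of 64 further G2 and mitosis genes 63 were tested, and with stress in vehicle-treated parental cells 3 rose and 3 fell in total reads (9.52%, against 12.9% of all genes), with a median of 0.10: BORA, the activator of Aurora A (log2 change 1.61 ± 0.37, edgeR adjusted p = 0.00348), STIL (0.81 ± 0.22, adjusted p = 0.0148), a centriole duplication protein, and DEPDC1B (0.79 ± 0.23, adjusted p = 0.0193) rose, and TUBB4B, a beta-tubulin (-1.07 ± 0.23, adjusted p = 0.00195), KIF20B (-0.48 ± 0.16, adjusted p = 0.0428) and GTSE1 (-0.33 ± 0.11, adjusted p = 0.0440) fell. In auxin-treated parental cells 1 rose and 6 fell, in tagged cells 0 changed with vehicle and 2 fell with auxin. This is 11.1%, 0% and 3.17%, against 10.5%, 4.03% and 4.15% of all genes. These counts without the shallowest library were 11 rising and 10 falling in vehicle-treated parental cells (30.1% of all genes), 0 and 7 with auxin, and in tagged cells 0 and 4 with vehicle and 0 and 6 with auxin (all genes, 9.23%, 7.74% and 8.12%).

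On the G1/S list CDC6, which loads the replicative helicase onto DNA, rose by 1.04 ± 0.10, 1.15 ± 0.10, 1.10 ± 0.10 and 1.13 ± 0.10 (largest edgeR adjusted p = 8.37e-09) in parental vehicle, parental auxin, tagged vehicle and tagged auxin cells. CCNE1, cyclin E1, fell in 3 of the 4 (-0.78 ± 0.14, -0.72 ± 0.15 and -0.51 ± 0.15, edgeR adjusted p = 0.000351, 0.00165 and 0.0404; not tagged auxin cells). In all, 3, 2, 1 and 2 of the 49 G1/S genes rose and 2, 6, 1 and 0 fell. This is 10.2%, 16.3%, 4.08% and 4.08% of them, against 12.9%, 10.5%, 4.03% and 4.15% of all genes. With the shallowest library left out, 6, 2, 1 and 3 rose and 9, 5, 2 and 3 fell (all genes, 30.1%, 9.23%, 7.74% and 8.12%). Among 11 tested G1 cyclins and CDK inhibitors, CDKN1B, the CDK inhibitor p27, rose in all 4, by 0.59, 0.50, 0.48 and 0.46 (SE 0.12 each, edgeR adjusted p = 0.000865, 0.00635, 0.0133 and 0.0178). In vehicle-treated parental cells it was the only call of that list (9.09%, against 12.9% of all genes). Without the shallowest library 2 rose and 2 fell there, where 30.1% of all genes passed.

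Of the 22 regulators on the MuvB, E2F and p53 list, which includes the parts of DREAM, 3 rose and 1 fell with stress in vehicle-treated parental cells: RB1, the retinoblastoma protein (1.25 ± 0.36, edgeR adjusted p = 0.0186), LIN54, the MuvB subunit that binds the CHR (0.93 ± 0.26, adjusted p = 0.0150), and NFYC, a subunit of NF-Y (0.51 ± 0.16, adjusted p = 0.0348), rose, and E2F2 fell (-0.70 ± 0.16, adjusted p = 0.00282). This is 18.2%, against 12.9% of all genes. The counts were also 3 and 1 without the shallowest library, where 30.1% of all genes passed. RB1 (1.45 ± 0.36, edgeR adjusted p = 0.0179) and LIN54 (1.00 ± 0.26, adjusted p = 0.0215) also rose with auxin in unstressed parental cells, a comparison that shares the same 4 control libraries. With stress in auxin-treated parental cells 1 rose and 2 fell (13.6%, against 10.5% of all genes). In tagged cells 0 of the 22 passed with stress by edgeR (all genes, 4.03% with vehicle and 4.15% with auxin). Without the shallowest library 1 rose and 1 fell with vehicle, and 1 rose with auxin (all genes, 7.74% and 8.12%). Among 23 p53 target genes 7, 4, 4 and 4 rose and 1 fell in each comparison (34.8% in vehicle-treated parental cells, against 12.9% of all genes), led by SESN2, GDF15 and GADD45A, which are also known to be induced by ER stress. In parental auxin, tagged vehicle and tagged auxin cells it was 21.7% each, against 10.5%, 4.03% and 4.15% of all genes. With the shallowest library left out, 7, 6, 5 and 6 rose and 5, 1, 3 and 2 fell (all genes, 30.1%, 9.23%, 7.74% and 8.12%). Of 19 tested mitotic entry inhibitors and subunits of the anaphase-promoting complex 1 changed in total reads, ANAPC1 (0.81 ± 0.27, edgeR adjusted p = 0.0456), in vehicle-treated parental cells (5.26%, against 12.9% of all genes). In the fit without the shallowest library 1 rose and 5 fell there, where 30.1% of all genes passed. In labelled reads PKMYT1, a kinase that inhibits CDK1, fell in those cells (-0.97 ± 0.23, edgeR adjusted p = 0.0009), and CDC27, a subunit of the anaphase-promoting complex, rose in auxin-treated parental cells (0.61 ± 0.18, adjusted p = 0.0140) and in vehicle-treated tagged cells (0.60 ± 0.18, adjusted p = 0.0150).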

How the data were processed

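SLAM-seq libraries from 8 groups of 4 wells were read from one deposited table per library, which holds, per the file headers, whole-number counts for each transcript region: reads, reads with T-to-C conversions, covered T positions and conversions. The authors aligned to hg38, per the submitters' processing notes; the Slamdunk version, conversion threshold and annotation are not given in the sources used here, and the deposited CPM and conversion-rate columns were not used. Transcript identifiers were matched to symbols, per gene the transcript with most reads was kept, and the transcripts left without a symbol, 36.9% to 43.5% of the counts in a library, entered no test. Of the 16 tagged titles, 2 in the unstressed vehicle group give the tag's name in repeated form, which was taken as the same line.

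Total and labelled reads were tested with edgeR's quasi-likelihood test (edgeR 4.0.16, R 4.3.3) on TMM factors after edgeR's filter on low counts, all 8 groups sharing 1 estimate of the spread (24 residual degrees of freedom), with Benjamini-Hochberg adjustment over 11186 (total) or 8980 (labelled, share) genes and a threshold of 0.05. The share test set labelled against other reads of the same gene across groups. SE is the size of the log2 change divided by the square root of its F statistic. DESeq2 1.42.0 and limma 3.58.1 gave alternatives, and the scripts were tested on simulated data. Leaving out each library in turn kept, for the share test, the dispersion trend of all 32 libraries. Counts per library set the precision: 0.987 M to 6.98 M reads in named genes, and 1761 to 61128 reads per gene over all libraries. Intervals and tests do not cover reads that are copies of 1 molecule.

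The members and gene lists were chosen with earlier results of these data known. The text names up to 8 genes per direction past the threshold, or the 3 with the smallest p where no gene passed, up to 3 per direction from each other list, and the main mitotic regulators always.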

Additional observations from a re-analysis of the deposited data

Results flagged for a closer look

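In the CPM of 10 of the 40 genes and in the summed CPM of all 40, over the 8 groups of 4 libraries, 88 sets of values were examined, and 7 held 1 library whose gap to its nearest neighbour was a larger part of the group's range than Dixon's critical ratio for 4 values allows; chance alone marks about 1 in 20 sets. CCNB1 in unstressed, auxin-treated tagged cells was high in replicate 1, at 199.7 CPM. MKI67 in the same group was low in replicate 2, at 293.9 CPM. CDK1 in unstressed, vehicle-treated tagged cells was low in replicate 4, at 115.0 CPM. DLGAP5 accounted for the other 4: it was low in replicate 1 of unstressed, vehicle-treated parental cells (40.4 CPM), high in replicate 4 of stressed, vehicle-treated parental cells (48.5 CPM), high in replicate 2 of stressed, auxin-treated parental cells (41.1 CPM) and high in replicate 3 of unstressed, vehicle-treated tagged cells (52.8 CPM).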

How the results depend on the processing

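No called value changed sign under any alternative run, and 199 counts or medians moved. Calls over all genes moved too. With stress in vehicle-treated parental cells they were 12.9% in total reads, and 30.1% without the shallowest library. Most shares over all genes are not given in this section. The counts below therefore describe how calls depend on the processing and are not results about the 40 genes. Comparisons are listed as PV, PA, TV and TA for stress in parental or tagged cells with vehicle or auxin, and as PU, PS, TU and TS for auxin in parental or tagged, unstressed or stressed cells. In total reads, with the first within-group component as a covariate, the counts of the 40 genes called were 22 (PV), 20 (PA), 1 (TV), 2 (TA), 18 (PU), 23 (PS), 14 (TU) and 14 (TS). Between lines they were 3, 3, 13 and 25 (unstressed vehicle, unstressed auxin, stressed vehicle, stressed auxin), for the line difference of the auxin effect 24 in stressed cells, and for that of the stress effect 8. With the shallowest library left out and the component recomputed, an alternative chosen after seeing the data, they were 27 (PV), 2 (TV), 5 (TA), 20 (PU), 18 (TU), 16 (TS), 4, 8, 17 and 1 between lines, 2 and 10 for the auxin difference and 13 for the stress difference. Over all genes that fit called 41.3% (PV), 12.1% (TV), 14.6% (TA), 34.6% (PU), 29.1% (TU) and 21.9% (TS). Between lines it called 8.72%, 8.44%, 18.2% and 2.6%, and for the differences 5.23%, 10.7% and 14.7%. Either component comes from the deviations in these same counts, so the residual spread falls by construction. DESeq2 gave 6 (PV), 4 (PA), 6 (PU), 3 (TU), 1 and 2 between stressed lines and 1 for the auxin difference in stressed cells. Fitting the compared libraries alone gave 7 (PV), 0 (PA), 1 (TA), 6 (PU), 14 (TU), 8 (TS) and 2 between stressed vehicle-treated lines. With no filter PU and TU gave 0.

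In labelled reads, scaling by total reads gave 11 (PV), 4 (PA), 1 (TV), 6 (TA) and 0 (PU), with medians of -0.20 (PV), -0.24 (TV), -0.29 (TA) and -0.03 (TU), where their own factors gave 0.05, -0.03, -0.05 and 0.08. The component gave 7 (PA), 4 (TV), 1 (TA), 4 (PU), 6 (PS), 3 (TU), 2 (TS) and 9 for the stressed auxin difference, and without the shallowest library 4 (TV), 2 (TA), 7 (PU), 3 (TU), 2 (TS), 1 and 1 for the stressed auxin and the stress difference. No filter gave 0 (TV), 2 (TU) and 1 (stressed auxin difference), compared libraries alone 2 (TA), 3 (TU) and 2 (TS), and DESeq2 0 (TU) and 1 (stressed auxin difference). In the share, scaling by total reads gave 10 (PV), 2 (PA) and 4 (TA), with medians of -0.33 (PV), -0.30 (PA), -0.23 (TV), -0.17 (TA), -0.19 (PU) and -0.17 (TS). The limma ratio gave 1 (PV), 0 (TV) and medians of 0.14 (PA) and -0.06 (PU), limma on conversions per T 0 (PV), 0 (TV) and -0.07 (PU), the component 2 (PA, median 0.15) and 2 (TV), the 31-library component 2 (TV), and no filter 1 (PV). The cause of these shifts was not tested.

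Leaving out each of the 32 libraries in turn, the counts in total reads ran from 1 to 15 (PV), 0 to 4 (PA), 0 to 1 (TA), 0 to 14 (PU), 0 to 4 (PS), 0 to 11 (TU), 0 to 2 and 0 to 3 between stressed lines with vehicle and auxin, and 0 to 4 for the stressed auxin difference. In labelled reads they ran from 3 to 7 (PV), 0 to 3 (TV), 0 to 1 (TA), 0 to 1 (PU), 0 to 2 (TU), 0 to 2 (TS) and 0 to 1 for the stressed auxin difference, and in the share from 0 to 2 (PV), 0 to 1 (PA), 0 to 2 (TV), 0 to 1 (TA) and 0 to 1 (PU), with a median of 0.03 to 0.10 in PA. Of the single calls, INCENP in total reads and CDC25B, CENPA and KIF2C in labelled reads (all PV) held in every alternative run, 40 or 41 each. Those runs include leaving out each of the 32 libraries, most of them in neither compared group. Others held less often. CENPA in total reads held in 36 (PV) and 22 (TU) of 40. The INCENP and PRC1 shares (PV) held in 30 and 32 of 40. In labelled reads MKI67 (PV) held in 33 and CENPF (TV) in 32 of 41.

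Between groups, the deviations of same-numbered libraries had a median r of 0.022 (-0.421 to 0.436), and those of the others -0.015. Of these pairs 31.2% and 24.1% had an r above 0.1. All 32 libraries were used, the shallowest included. Whether wells of the same number were handled together cannot be read from these values, and the main tests left them unpaired. With the replicate block 2 genes passed in PU in place of 1, and no other count moved by more than 1.5 times. Depth limits the lowest genes, such as CENPA with 1 read in the shallowest library.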
